A study of Columba livia with 10 samples.

Results

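Genes of the cilium were examined in cerebella of domestic pigeons (Columba livia) of the racing homer breed, which is flown in competitions from a home loft. Of 22547 genes counted, 95 were included, by gene name alone: dynein arm genes (DNAH, DNAI, DNALI), nexin-dynein regulatory complex genes (DRC), radial spoke genes (RSPH), cilium and flagellum associated genes (CFAP), intraflagellar transport genes (IFT) and Bardet-Biedl syndrome genes (BBS), each with a number, and TPPP3, FOXJ1, CEP290, SPEF2, HYDIN, CCDC39 and CCDC40. They were divided into 70 motile cilium genes, 24 cilium trafficking genes (IFT, BBS and CEP290), which serve primary and motile cilia alike, and TPPP3. The race group held 5 birds killed on their return from a competition flight of 300 km, and the control group held 5 loft mates of like age that stayed at home that day. All birds shared one loft, were fed for competition and were trained by the widowhood method, per the labels. Whole cerebellum was read as bulk RNA, 1 library per sample, and that the libraries came from 10 separate birds is taken from the labels.

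A motile cilium beats by sliding of its outer microtubule doublets, which is driven by outer and inner dynein arms and governed by radial spokes, the nexin-dynein regulatory complex and the central pair. In the brain such cilia stand in tufts on ependymal cells, which line the ventricles, including the one beneath the cerebellum. A primary cilium lacks this machinery and acts as an antenna for signals such as Hedgehog. Both kinds are built by intraflagellar transport trains, whose IFT-B complex carries cargo outward and whose IFT-A complex carries it back, while the BBSome moves membrane proteins. TPPP3 promotes tubulin polymerization and is used as a marker of ependymal cells in mammals.

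Gene counts summed to between 17953704 and 21227493 in race libraries and between 18048137 and 23344086 in control libraries. Cerebellar markers were present in every library, with 228 to 337 CPM (counts scaled to the normalised total of each library) of CALB1, a Purkinje cell gene, in race and 233 to 392 CPM in control libraries, and 75 to 104 CPM of GABRA6, a granule cell gene, in race and 24 to 93 CPM in control libraries. PCP4, another Purkinje cell gene, stood at 20.4 to 30.6 CPM in race and 38.3 to 119 CPM in control libraries. PAX6, another granule cell gene, stood at 71.1 to 96.4 CPM in race and 48.8 to 73.2 CPM in control libraries. Whether the groups held like shares of these cells was not tested. Several control libraries stood apart. The Spearman correlation of control 1 with the rest had a median of 0.879, and control 4 held 76.4 CPM of the forebrain gene TBR1, which reached at most 2.59 CPM elsewhere. W-linked genes, which only female birds carry, reached 1 CPM in 92 to 94 of 195 cases in control 3, control 4 and control 5 and in 24 to 32 cases in the other 7 libraries, so the groups also differ in this. For 9 of the 10 libraries the number in the table's name is not the one in the sample's title. A table was given to the sample that holds it in the deposit. Had it been given to the sample titled with its number, 6 tables would be in the opposite group, and the directions given here depend on this.

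In the comparison of race with control, 85 of the 95 cilium genes had enough counts to be tested, namely 60 motile genes, 24 trafficking genes and TPPP3. None passed an adjusted p of 0.05 by edgeR's quasi-likelihood test, where 0% of all 14172 genes tested did. At an unadjusted p under 0.05, 5 of the 85 (5.88%) were lower in race birds, against 7.14% of all genes tested, and 5 (5.88%) were higher, against 6.19%. These shares were near the background. The lower ones were TPPP3, DRC1, CFAP44, CFAP65 and CFAP126, and the higher ones were IFT74, CFAP74, CFAP92, SPEF2 and DNAH3. All 5 race libraries lay below all 5 control libraries for TPPP3, DRC1 and CFAP20, 3.53% of the cilium genes tested against 1.67% of all genes, and above them for IFT74 and CFAP74, 2.35% against 2.65%. The counts of lower genes include TPPP3, which was placed in the list with its low p known. Apart from TPPP3, race lay below control for 2 of 60 motile and 0 of 24 trafficking genes. At an unadjusted p under 0.05 by edgeR, 4 motile and 0 trafficking genes were lower. At an adjusted p under 0.05 DESeq2 called 261 of 14172 genes in the same libraries and 3 of the 85 cilium genes, TPPP3, DRC1 and IFT74. Limma voom called 0. At an unadjusted p under 0.05 edgeR had 1889 genes and limma voom 1660.

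TPPP3 had the smallest p of all cilium genes, and it was placed among them with that known, so its values are a description. It stood at 6.84, 8.76, 10.0, 14.9 and 9.49 CPM in race 1 to race 5, and at 28.9, 24.4, 32.2, 19.2 and 22.5 CPM in control 1 to control 5. The groups did not overlap, and the highest race library, race 4, lay next to the lowest control library, control 4. The log2 fold change was -1.35 ± 0.24 (SE; edgeR adjusted p = 0.267). Leaving out any single library gave -1.55 to -1.24, and the value was -1.41 without control 3, control 4 and control 5 and -1.32 without control 1 and control 2. Under the link by sample title it was 0.32, the other direction. In bulk tissue, fewer cells of a type and less RNA per cell cannot be told apart. TPPP, its paralog and a gene of oligodendrocytes, averaged 139 ± 13.7 CPM in race and 144 ± 61.2 CPM in control libraries (SD, n = 5 each). The log2 fold change of TPPP was -0.05 ± 0.30, or -0.29 without control 1. TPPP was added after its value was seen and does not stand for its cell type. Of 17 oligodendrocyte markers tested 16 were negative, with a median of -0.50, and their part in the TPPP3 value was not tested.

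**Figure D1:**
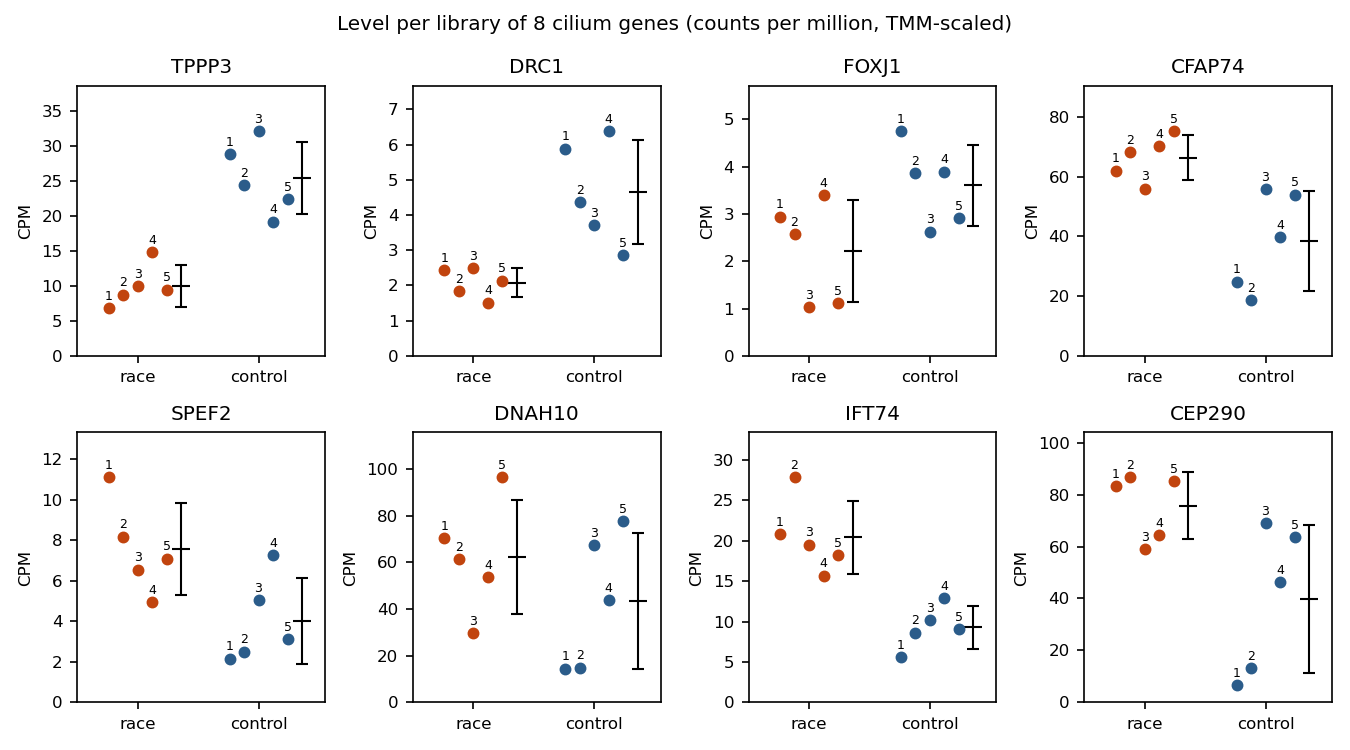
Level of 8 cilium genes in each library, in CPM on linear axes that start at 0, with race libraries left in red, control libraries right in blue, library numbers above the points, and mean and SD as black bars (n = 5 each). TPPP3 ran from 6.84 to 14.9 CPM in race and from 19.2 to 32.2 CPM in control libraries, whereas CEP290 and DNAH10 were lowest in control 1 and control 2, with the other controls among or near the race values.

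FOXJ1, the transcription factor that turns on the motile cilium programme, stood at 2.94, 2.56, 1.03, 3.39 and 1.12 CPM in race libraries and at 4.75, 3.86, 2.62, 3.89 and 2.91 CPM in control libraries. The groups overlapped, with race 3 and race 5 the lowest. Its log2 fold change was -0.70 ± 0.38 (edgeR adjusted p = 0.431), and -0.60 without control 1. Over all alternative settings, the groups by sample title included, it ran from -0.96 to -0.12. Of the structural genes named singly, HYDIN and SPEF2 belong to the central pair apparatus, and CCDC39 and CCDC40 form the ruler that sets the spacing of arms and spokes along the doublet. SPEF2, on the Z chromosome, stood at 4.95 to 11.1 CPM in race and 2.16 to 7.27 CPM in control libraries, a log2 fold change of 0.91 ± 0.37 (edgeR adjusted p = 0.350), or -0.15 with the groups of the sample titles. HYDIN ran from 9.48 to 18.3 CPM in race and from 9.19 to 41.4 CPM in control libraries, at -0.51 ± 0.36, and at -0.16 without control 1, which held its highest value. CCDC39 and CCDC40, which act together, had log2 fold changes of 0.41 ± 0.57 and 0.38 ± 0.19. CCDC39 stood at -0.10 without control 1 and control 2, and CCDC40 at -0.16 by title.

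The dynein arms power the beat. Among outer arm heavy chains DNAH17, best known from sperm, stood at 0.57 ± 0.36, DNAH5 at 0.18 ± 0.36 and DNAH9 at -0.57 ± 0.83 on the log2 scale, and DNAH8 was not tested. DNAH9 was uneven: race 1 held 30.3 CPM and the other race libraries 3.68 to 7.83 CPM, while control 1 held 55.9 CPM and the other controls 4.36 to 7.38 CPM. Without control 1 its log2 fold change was 0.93, the opposite sign. Inner arm heavy chains were split, with 3 of 6 on either side of 0. DNAH3 stood at 11.5, 27.0, 10.8, 16.5 and 20.6 CPM in race and 2.92, 3.69, 15.4, 8.67 and 11.0 CPM in control libraries, a log2 fold change of 1.05 ± 0.45 (edgeR adjusted p = 0.356). Its groups overlapped, and control 1 and control 2 were lowest. DNAH12 and DNAH10 stood at 0.81 ± 0.40 and 0.51 ± 0.47, again with control 1 and control 2 lowest. Without those libraries DNAH3, DNAH12 and DNAH10 stood at 0.54, 0.36 and -0.04. DNAH14 stood at -0.22, DNAH7 at -0.05 and DNAH1 at -0.01, and each turned when 1 library was left out, DNAH7 to 0.67 without control 3, DNAH14 to 0.12 without control 4 and DNAH1 to 0.16 without control 1.

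The smaller arm subunits did not follow the heavy chains in a shared direction. DNALI1, an inner arm light chain, stood at 2.83 to 6.28 CPM in race and 5.72 to 7.56 CPM in control libraries, with race 1 alone inside the control range, and a log2 fold change of -0.57 ± 0.27 (edgeR adjusted p = 0.385). DNAI7 stood at 0.55 ± 0.36, and at 0.13 without control 1 and control 2 or -0.05 by title. The outer arm intermediate chains DNAI1 and DNAI2 stood at 0.16 ± 0.30 and -0.16 ± 0.28, and DNAI4 at -0.17, or 0.33 without control 3.

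DRC1, a scaffold of the nexin-dynein regulatory complex, had the smallest p of the motile genes. It stood at 2.43, 1.84, 2.49, 1.51 and 2.13 CPM in race libraries and at 5.88, 4.37, 3.71, 6.39 and 2.86 CPM in control libraries. The groups did not overlap, with control 5 closest to the race birds. Its log2 fold change was -1.15 ± 0.30 (edgeR adjusted p = 0.272), and -1.29 to -1.01 with any single library left out. With the groups of the sample titles it was -0.035. DRC7, of the same complex, stood at 0.31 ± 0.35 with overlapping groups, and DRC3 was too low to test. The radial spoke genes RSPH1, RSPH3, RSPH9 and RSPH14 lay between -0.21 and 0.14, each within its standard error of 0.

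CFAP genes were the largest role, with 35 tested and a median log2 fold change of -0.22. Of these 24 (68.6%) stood below 0, against 52.6% of all genes tested. With a minimum count of 50, 11 of 19 stood below 0, with a median of -0.15. By sample title 14 of 35 did, with a median of 0.18. The CFAP genes of smallest p lay on both sides of 0. CFAP74, a central apparatus protein, stood at 62.1, 68.2, 56.0, 70.2 and 75.3 CPM in race and 24.8, 18.7, 55.9, 39.8 and 54.0 CPM in control libraries. Race libraries were all higher, although race 3 and control 3 nearly met. The log2 fold change was 0.78 ± 0.28 (edgeR adjusted p = 0.328), and 0.39 without control 1 and control 2. CFAP126, needed for basal body placement in mice, stood at 0.978 to 1.57 CPM in race and 1.48 to 5.29 CPM in control libraries, at -1.06 ± 0.40, or -0.63 without control 1. CFAP44, part of an inner arm tether, and CFAP65, needed for sperm flagella in mice, stood at -1.45 ± 0.57 and -1.25 ± 0.51. CFAP44 rested on 141 reads over all 10 libraries, stood at -0.15 without control 3, control 4 and control 5, and at 1.73 by title. CFAP65 ran from -1.56 to -0.038 over all alternative settings, the groups by title included. CFAP20, at the inner junction of the doublet, had 47.3 ± 1.87 CPM in race and 54.3 ± 2.3 CPM in control libraries (SD, n = 5 each) and a log2 fold change of -0.20 ± 0.12, though its groups did not overlap. Of the other CFAP genes tested, CFAP100 stood lowest at -1.19 and CFAP92 highest at 0.91, and both averaged under 3 CPM in race and in control libraries. Those with many reads included CFAP97, CFAP36 and CFAP298. CFAP97 averaged 69.4 CPM in race and 68.9 CPM in control libraries, CFAP36 averaged 51.6 CPM in race and 63.7 CPM in control libraries, and CFAP298 averaged 31.9 CPM in race and 35.2 CPM in control libraries. CFAP61, of the calmodulin- and spoke-associated complex, averaged 19.2 CPM in race and 26.3 CPM in control libraries, at -0.46. Control 4 held 70 CPM of CFAP61, and without it the value was 0.31.

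**Figure D2:**
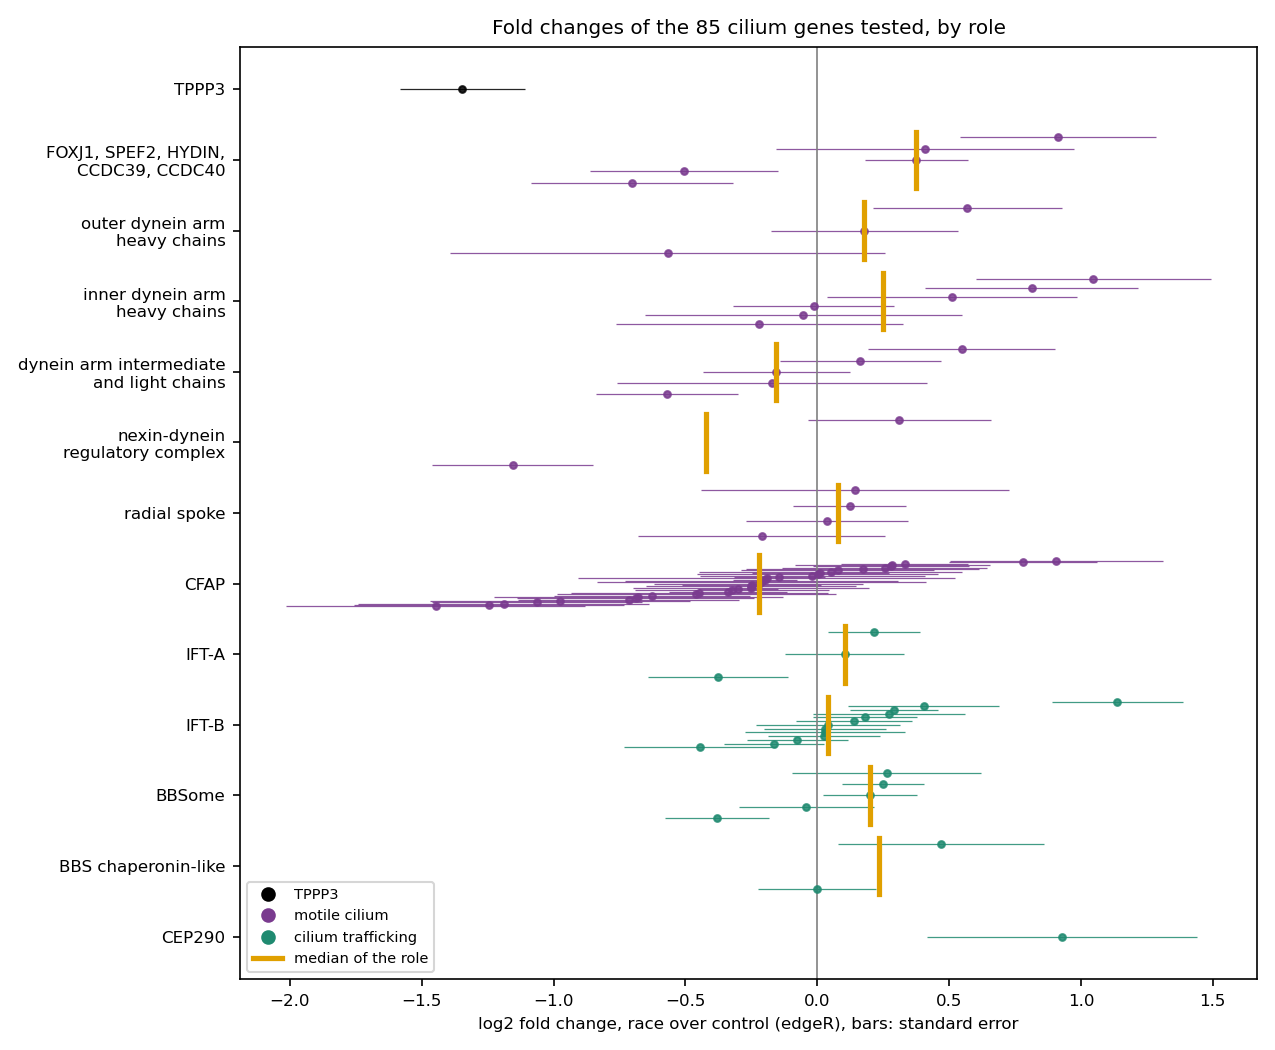
Log2 fold change of race over control for each of the 85 cilium genes tested, grouped by role, with standard errors from edgeR and the median of each role in yellow. TPPP3 stands alone at -1.35, CFAP genes centre on -0.22 and IFT-B genes on 0.04 with IFT74 at 1.14.

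Among the trafficking genes, IFT74, which with IFT81 forms the tubulin-binding part of the IFT-B complex, had the smallest p. It stood at 20.8, 27.8, 19.5, 15.7 and 18.2 CPM in race libraries and at 5.56, 8.63, 10.2, 12.9 and 9.08 CPM in control libraries. Every race library lay above every control library. The log2 fold change was 1.14 ± 0.25 (edgeR adjusted p = 0.267), and 0.98 to 1.29 with any single library left out. It was -0.32 with the groups of the sample titles. IFT74 lies on the Z chromosome, as did 28.4% of the genes that were higher in race birds at an unadjusted p under 0.05 and 4.81% of all genes tested. The median log2 fold change of the 682 Z-linked genes was 0.45. The part of the Z chromosome in the IFT74 and SPEF2 values was not tested. IFT81, its partner on chromosome 17, stood at 137 to 170 CPM in race and 68.9 to 178 CPM in control libraries, a log2 fold change of 0.14 ± 0.22.

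The other IFT-B genes lay closer to 0, and the median of all 13 was 0.04. IFT80, IFT52 and IFT46 stood at 0.40 ± 0.29, 0.29 ± 0.17 and -0.45 ± 0.29, and IFT46 at -0.21 without control 1, whose 113 CPM was its highest value. IFT88, a core subunit whose loss blocks cilium assembly in mice, averaged 21.2 CPM in race and 17.6 CPM in control libraries, at 0.27. IFT172, the largest IFT-B subunit, averaged 91.3 CPM in race and 88.7 CPM in control libraries, at 0.04. Control 1 held 169 CPM of IFT172, and without it the value was 0.39. Without control 1 IFT88, IFT80 and IFT81 stood at 0.057, 0.20 and -0.044. The remaining IFT-B genes lay between -0.16 for IFT22 and 0.18 for IFT57. Of the IFT-A genes, IFT122 and IFT140, both core subunits, stood at 0.22 ± 0.17 and 0.10 ± 0.23, and IFT43 at -0.38 ± 0.27. The BBSome subunits BBS2, BBS5 and BBS9 stood at 0.25 ± 0.16, 0.20 ± 0.18 and 0.26 ± 0.36, BBS4 at -0.38 ± 0.20 and BBS7 at -0.04. BBS10 and BBS12, chaperonin-like factors that help assemble the BBSome, stood at -0.00 ± 0.22 and 0.47 ± 0.39. Race and control libraries overlapped for each of these IFT and BBS genes.

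CEP290, a protein of the transition zone that gates entry to the cilium, was uneven among controls. It stood at 83.2, 86.6, 59.1, 64.4 and 85.1 CPM in race libraries and at 6.59, 13.2, 68.9, 46.4 and 63.6 CPM in control libraries. Control 1 and control 2 lay far below the other 8 libraries, and 2 of the other 3 controls lay within the race range. The log2 fold change was 0.93 ± 0.51 (edgeR adjusted p = 0.432). It was 0.32 without control 1 and control 2 and 2.94 without control 3, control 4 and control 5.

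Motile and trafficking genes were then set side by side. Of the 60 motile genes tested 35 (58.3%) were negative on the log2 scale (median -0.16), and of the 24 trafficking genes 7 (29.2%) were (median 0.12). Over all genes tested 52.6% were negative and the median was -0.03. The difference, motile minus trafficking, was -0.29. Without 8 motile genes also used by cells without motile cilia, 29 of 52 were negative and the median was -0.16. The range of single genes was wider among motile genes, from -1.45 to 1.05, than among trafficking genes, from -0.45 to 1.14, and 10 motile genes but no trafficking gene averaged under 1 CPM. Among motile genes of at least 1 CPM the median was -0.04. The motile median changed sign without control 3, at 0.06, and was between -0.10 and -0.04 without race 3, race 4, control 4 or control 5, each left out alone. The trafficking median was 0.00 without control 1. With the groups of the sample titles the medians were 0.09 for motile and 0.11 for trafficking genes, a difference of -0.02.

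The levels were also set out by library. The motile level, the median log2 CPM of its genes after subtraction of each gene's mean over all libraries, was 0.33, 0.11, -0.15, -0.22 and 0.03 in race 1 to race 5 and -0.34, -0.35, 0.33, 0.27 and 0.07 in control 1 to control 5. The groups overlapped over nearly their whole range. The trafficking level ran from -0.00 to 0.16 in race libraries and was -0.60, -0.24, 0.11, 0.21 and 0.03 in control libraries. Control 1 and control 2 lay below all race libraries, and the other controls lay among or above them. TPPP3 did not follow the motile level throughout either group. In control 1 and control 2 it stood 0.89 and 0.65 above its mean where the motile level was lowest. In race 1 it stood at -1.17 where the motile level was highest. In control 3, however, both were high, TPPP3 at 1.04 and the motile level at 0.33.

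**Figure D3:**
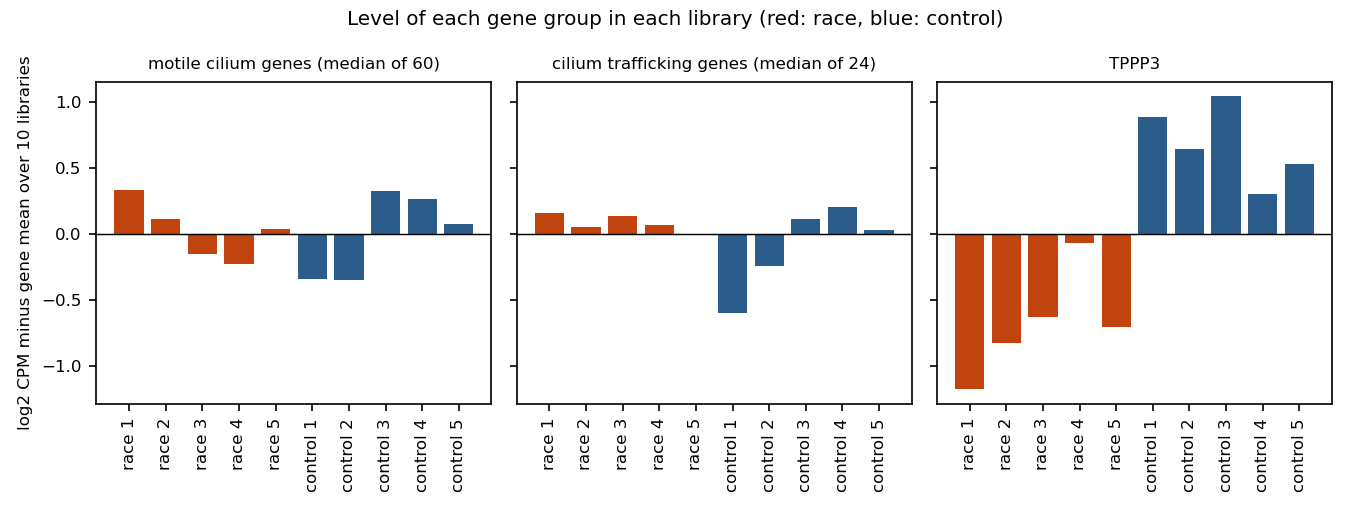
Level of motile genes, trafficking genes and TPPP3 in each library, as log2 CPM minus the mean of each gene over the 10 libraries (median over genes), with race libraries in red and control libraries in blue. Trafficking genes were lowest in control 1 at -0.60, while TPPP3 was below its mean in all 5 race libraries.

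The spread among controls was wide. For 45 of 60 motile genes (75.0%) and 21 of 24 trafficking genes (87.5%) the SD of log2 CPM was larger among control than among race libraries, against 81.4% of all genes tested. Control 1 held the lowest value of 14 trafficking genes (58.3%) and 18 motile genes (30.0%), and of 32.4% of all genes. The level in these libraries varied with gene span, the length of a gene on the chromosome with introns. In the 30 motile genes of longer span, with a median of 65.8 kb, control 1 and control 2 stood at a median of -0.51 and -0.54 on the log2 scale, and in the 30 of shorter span, with a median of 11.7 kb, at -0.015 and -0.06. For trafficking genes control 1 stood at -0.98 in the 12 of longer span and -0.24 in the 12 of shorter span. Over all genes, split the same way, control 1 stood at -0.47 and 0.34 and control 2 at -0.09 and 0.05. Offsets for gene span left TPPP3 at -1.21, the motile median at -0.15 and the trafficking median at 0.12. The part of gene span in the values of single genes was not tested.

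**Figure D4:**
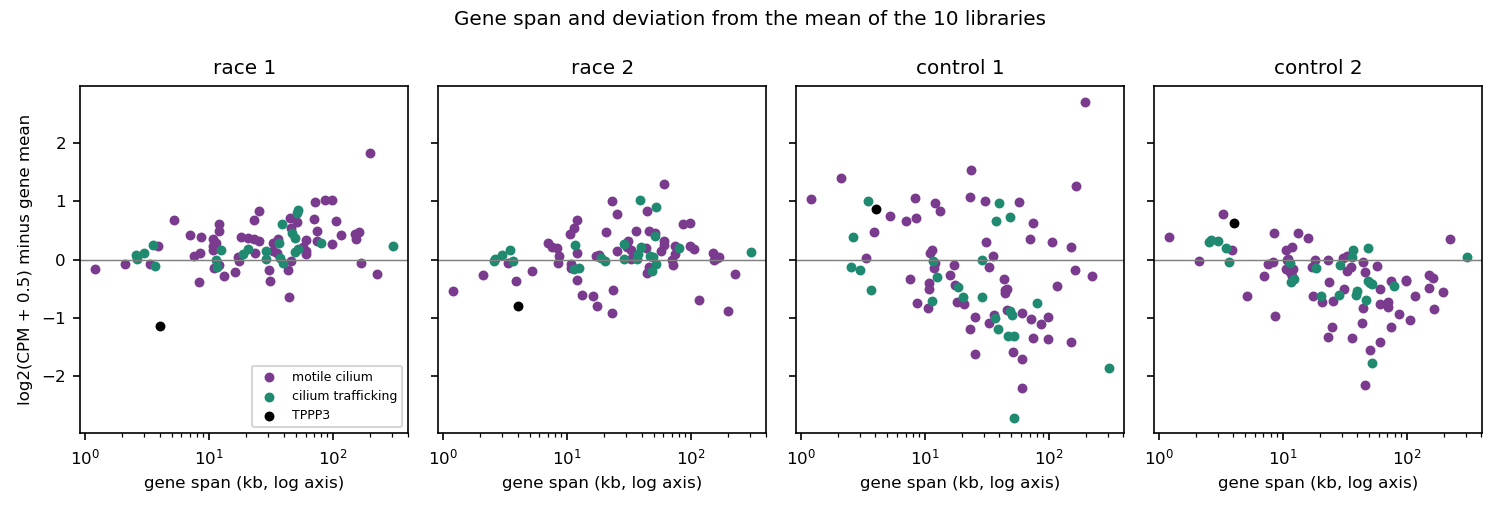
Gene span in kb (log axis) and deviation of log2 CPM (0.5 added) from the mean over 10 libraries for each cilium gene tested, in race 1, race 2, control 1 and control 2. In control 1 most genes of long span lie below 0, with a median of -0.51 in the 30 motile genes of longer span, and in race 1 these have a median of 0.34.

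With control 1 and control 2 as the only controls, 3416 of 14697 genes (23.2%) passed, among them 20 of 86 cilium genes (23.3%) and so at the background share. These included the heavy chains DNAH3, DNAH5, DNAH10, DNAH12 and DNAH14 and CEP290, IFT74 and IFT80, all higher in race birds, and TPPP3, DRC1 and CFAP126, lower in race birds. DNAH3, DNAH10 and CEP290 then stood at 2.38, 2.08 and 2.94. With control 3, control 4 and control 5 as the only controls, 106 of 14577 genes (0.727%) passed and 0 of them were cilium genes. There 29 of 35 CFAP genes were negative, with a median of -0.46. With control 1 and control 2 as the only controls 17 of 36 CFAP genes were negative, with a median of 0.09. The 2 sets of controls differ in W-linked expression, in the share of reads outside any gene feature, which was 15.1% and 15.7% in control 1 and control 2 and 17.8% to 20.0% in the others, and in the pattern by gene span. These cannot be told apart here.

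Other genes of the cilium, from lists outside the name rule, were counted in the same way. Of 58 further motile genes tested, such as arm assembly factors and tektins, 34 were negative with a median of -0.09, and at an unadjusted p under 0.05 6 (10.3%) were lower and 2 (3.45%) higher, against 7.14% and 6.19% of all genes. The median was 0.0013 without control 3. KIF27, a kinesin needed for motile cilia in mice and on the Z chromosome here, stood at 1.21 ± 0.25. DYNLRB2, a dynein light chain, stood at -0.68 ± 0.23 with no overlap between groups. Race lay below control for 1 of the 58 and above for 1, against 1.67% and 2.65% of all genes tested. Of 87 further trafficking and transition zone genes 31 were negative with a median of 0.18, and 2 (2.3%) were lower and 8 (9.2%) higher at that threshold. Race lay below control for 1 of the 87 and above for 7, against 1.67% and 2.65% of all genes tested. CPLANE1 and CEP120, both Z-linked, stood at 1.36 ± 0.31 and 1.03 ± 0.24, and ANKS6, of the inversin compartment, at 1.04 ± 0.28. BBIP1, the smallest BBSome subunit, stood at -1.23 ± 0.38. Of 15 genes listed for multiciliated cells, mostly regulators, 7 were negative with a median of 0.11, or -0.024 without race 1. RFX3, a transcription factor of ciliary genes and Z-linked, stood at 36.1 to 47.3 CPM in race and 13.8 to 34.4 CPM in control libraries, a log2 fold change of 0.90 ± 0.23, while DNAJB13 and PLK4 stood at -0.72 and 0.49. DNAJB13, a radial spoke protein, is also counted among the further motile genes. MCIDAS, a switch for multiciliation, had no reads in any library. None of these genes passed an adjusted p of 0.05 by edgeR.

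Of 11 TPPP and tubulin genes tested 8 were negative, with a median of -0.52, or -0.26 without control 3. TUBB4B, the main beta tubulin of cilia, stood at 776 to 1048 CPM in race and 940 to 1643 CPM in control libraries, at -0.52 ± 0.18. The neuronal TUBB3 stood at -0.76, or -0.29 without control 1. TUBE1, the epsilon tubulin of centrioles, stood at 0.85 but rested on 144 reads over all libraries. It averaged 0.93 CPM in race and 0.51 CPM in control libraries.

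Markers of the cells that carry or adjoin motile cilia were set beside TPPP3. Of 30 ependymal markers outside the name rule 21 were in the tables and 18 were tested, 9 negative and 9 positive with a median of 0.04. Their summed level was 205 to 248 CPM in race and 185 to 385 CPM in control libraries. RARRES2 held 74 to 95.9 CPM in race and 101 to 290 CPM in control libraries. TEKT1 held 60 to 80.1 CPM in race and 31.1 to 76.1 CPM in control libraries. These 2 genes made up a large part of the sums. DYNLRB2, TEKT4 and RARRES2 were the 3 of smallest p, at -0.68, -0.84 and -0.66, and TEKT1, a tektin of the doublet, stood at 0.37. The CIMAP3 gene, at most 0.149 CPM, was at 0 in 4 libraries. RARRES2 stood at -0.23 without control 1, which held 290 CPM. The groups of DYNLRB2 and of RARRES2 did not overlap: race lay below control for 2 of the 18 tested, against 1.67% of all genes tested. Race lay above control for 0 of the 18, against 2.65%. At an unadjusted p under 0.05 by edgeR, 3 of the 18 (16.7%) were lower in race birds and 0 were higher. Of all genes tested, 7.14% were lower and 6.19% higher. Of the 18 ependymal markers tested 16 are also in the list of further motile genes, so the 2 lists are not separate evidence. The ependymal median was -0.12 without race 1 and 0.19 at its highest with another library left out. Of 26 choroid plexus markers 21 were in the tables and 16 were tested, 9 of them negative with a median of -0.12 and a summed level of 1310 to 1598 CPM in race and 890 to 1538 CPM in control libraries. SLC4A10 held 631 to 858 CPM in race and 211 to 699 CPM in control libraries. CAB39L held 330 to 366 CPM in race and 207 to 411 CPM in control libraries, and together they made up a large part of these sums. CLDN2 and KCNJ13, both used to define choroid plexus, were near 0, with CLDN2 at 0 in 7 libraries and KCNJ13 at no more than 0.823 CPM in race and 1.48 CPM in control libraries. KCNE2 stood at 1.61, or 1.06 without race 4. AQP1 and KL stood at -2.30 and -2.25, both highest in control 4, and at -0.49 and -0.70 without it.

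Markers of glia, meninges and forebrain were counted as well, beside the 52.6% of all genes tested that were negative. Of 17 oligodendrocyte markers tested 16 were negative with a median of -0.50, a summed level of 2188 to 4575 CPM in race and 2939 to 6437 CPM in control libraries, and CNP, MAG and TMEM125 at -1.13, -1.38 and -1.06. Of 12 astrocyte and Bergmann glia markers 9 were negative with a median of -0.44, and GFAP, HEPACAM and S100B stood at -1.34, -0.99 and -0.70. The 3 positive ones were GLUL, SLC1A2 and GJA1, at 0.21, 0.10 and 0.06. SLC1A3 and AQP4 stood at -0.02 and -0.06, and each of the genes from GLUL to AQP4 turned when 1 library was left out. HEPACAM stood at -0.44 without control 1, and the median was -0.24 without control 4. The summed level of the 12 markers was 5306 to 7510 CPM in race and 5250 to 15896 CPM in control libraries. ALDOC alone held 2539 to 3484 CPM in race and 2115 to 10535 CPM in control libraries, highest in control 1. It was so a large part of these sums. Which cells the ALDOC reads came from was not tested, so the sums are not a level of astroglia alone. Of 14 meningeal markers 5 were negative with a median of 0.08, with COL3A1, COL1A1 and DCN at 0.85, -1.03 and 0.51. COL1A1 stood at 0.092 without control 1, which held 31.3 CPM, and DCN at 0.15 without race 1. The list had sums of 337 to 557 CPM in race and 244 to 611 CPM in control libraries. ZIC1 alone held 231 to 354 CPM in race and 119 to 394 CPM in control libraries, a large part of these sums. ZIC1 was also checked as a gene of the cerebellum itself, so the sums are not a level of meningeal cells alone. Of 6 forebrain markers tested 5 were negative with a median of -2.47, with TBR1 and LHX6 at -3.88 and -3.22. Control 4 alone carried these values: without it the median was 0.26, and TBR1 and LHX6 stood at 0.39 and -0.27. The list's sum reached 51.6 CPM at most in race and 313 CPM in control libraries. At an unadjusted p under 0.05 by edgeR, 7 of 17 oligodendrocyte (41.2%) and 4 of 12 astroglial markers (33.3%) were lower in race birds. Of either list 0 were higher. Among all genes tested 7.14% were lower and 6.19% higher. Race lay wholly below or above control for 0 markers of either list, against 1.67% and 2.65% of all genes. The oligodendrocyte and astroglial medians were negative, as was TPPP3, and their part in the TPPP3 value was not tested.

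The 10 genes too low to test were all motile: DNAH8, DNAI3, DRC3, CFAP47, CFAP58, CFAP73, CFAP97D2, CFAP107, CFAP184 and CFAP263. They had 10 to 70 reads each over all libraries and at most 1.14 CPM in any of them, so they were left out by the filter on low counts. Fitted with no filter, 8 of the 10 were negative, between -1.99 and 0.69, with 0 at an unadjusted p under 0.05 and a lowest adjusted p of 0.472 by edgeR.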

How the data were processed

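Total RNA from 10 cerebella was sequenced in read pairs, per the labels' protocols. HTSeq 0.13.5, STAR 2.7.10a, MultiQC 1.14, FastQC 0.11.5 and fastp 0.23.2 are the tools listed in the submitters' processing notes. The sources used here do not give build, annotation or strand setting, so overlapping or antisense genes are uncertain. The deposited values are raw counts per gene, 1 table per library. Rows that name no gene held 18.1% to 23.4% of counts and were left out.

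Genes were kept by filterByExpr (minimum count 10), scaled by TMM, and compared in R 4.3.3 with edgeR 4.0.16, by its quasi-likelihood test (two-sided). Benjamini-Hochberg adjustment ran over 14172 genes. CPM use TMM-scaled totals of these genes. Levels by library use a prior count of 2. Standard errors are the log2 fold change over the root of F. The steps were tested on simulated data. Chromosome and gene span come from the RefSeq table of assembly bColLiv1.pat.W.v2, in which all 95 genes matched, and no coordinates are given. A level per coding length and sequences were planned but no such reference was used here, so levels of different genes are not compared.

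Members, lists and tests were chosen with earlier results of these data known. Named are the genes listed singly and up to 4 of smallest p per role, with up to 3 per further list; 2 such genes are not reported here. CFAP20, CFAP36, CFAP61, CFAP92, CFAP97, CFAP100, CFAP298, IFT22, IFT57, IFT81, IFT88, IFT172, BBS7, DNAH1, DNAH7, DNAI4, TPPP, TEKT1, BBIP1, MCIDAS, CIMAP3, CLDN2 and KCNJ13 were added after their values were seen. So were ZIC1, GLUL, SLC1A2, GJA1, SLC1A3, AQP4, ALDOC, SLC4A10, CAB39L, PCP4 and PAX6. Alternatives were other scalings and filters, limma voom 3.58.1, DESeq2 1.42.0, libraries left out, groups by title and gene span offsets.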

Additional observations from a re-analysis of the deposited data

Results flagged for a closer look

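Within 86 sets of 5 libraries, those of the named genes and the group levels, 7 had a value set far apart from the other 4. Chance gives about 1 in 20 for independent, normally distributed values, but these sets share the same libraries. Over all genes tested, control 1 held the highest value of 31.4% and the lowest of 32.4%. Control 1 held 5 of them: DNAH9 at 55.9 CPM (4.36 to 7.38 in the other controls), DNAH17 at 10.9 (6.02 to 7.37), CFAP126 at 5.29 (1.48 to 2.39), IFT46 at 113 (53.3 to 64.3) and BBS9 at 2.48 (10.6 to 13.3). Race 1 held the others, DNAH9 at 30.3 CPM (3.68 to 7.83 in the other race libraries) and IFT43 at 10.4 CPM (5.80 to 6.87).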

How the results depend on the processing

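With any single library left out, 0 to 1 genes passed an adjusted p of 0.05, TPPP3 stood at -1.55 to -1.24 (edgeR adjusted p 0.0888 to 0.521), the motile median at -0.22 to 0.06, the trafficking median at 0.00 to 0.19 and their difference at -0.33 to -0.13. Genes passing numbered 261 by DESeq2, 3416 without control 3, control 4 and control 5, 106 without control 1 and control 2, 40 without control 1 and control 4, and 3 by sample title. TPPP3 was -1.37 by DESeq2 (adjusted p = 6.74e-05) and 0.32 by title (edgeR adjusted p = 0.717). It was -1.41 (edgeR adjusted p = 0.0158) without control 3, control 4 and control 5, where 23.2% of all genes tested passed. TPPP3 was listed with its low p in these data known, so these values are a description. Without control 3, control 4 and control 5 the motile and trafficking medians were 0.34 and 0.44 and their difference -0.10, which was -0.019 by title. Signs were followed for the cilium genes listed singly or of smallest p per role. Signs turned for BBS10 with plain library sizes (0.10), for BBS10 (0.0029) and DNAH14 (0.18) by limma voom, and for DNAH14 (1.68) and RSPH3 (0.025) without control 3, control 4 and control 5. Without control 1 and control 2 they turned for CCDC39 (-0.10), BBS10 (0.037), BBS9 (-0.057), DNAH10 (-0.038), DNAH9 (0.91), DNAH5 (-0.24), IFT140 (-0.20), RSPH9 (-0.022), RSPH14 (-0.034) and RSPH1 (-0.32), and without control 1 and control 4 for CCDC39 (-0.11), DNAH9 (0.84), DNAH5 (-0.058), RSPH14 (-0.013) and RSPH1 (-0.18). By title they turned for SPEF2 (-0.15), CCDC40 (-0.16), CFAP44 (1.73), DNAH14 (0.92), DNAH17 (-0.21), DNAI7 (-0.046), DNAI1 (-0.19), IFT74 (-0.32) and RSPH14 (-0.13), and with gene span offsets for BBS10 (0.15), DNAI1 (-0.022), RSPH9 (-0.0070), RSPH14 (-0.025) and RSPH1 (-0.035). With single libraries left out the ranges among these genes that crossed 0 were -0.14 to 0.61 for RSPH14, -0.16 to 0.21 for RSPH1, -0.092 to 0.10 for BBS10, -0.0014 to 0.38 for BBS9, -1.49 to 0.93 for DNAH9, -0.057 to 0.43 for DNAH5, -0.30 to 0.0099 for DNAI2, -0.050 to 0.25 for IFT140, -0.48 to 0.12 for DNAH14 and -0.45 to 0.15 for RSPH3. Of the cilium genes added after their values were seen, DNAH7, CFAP61, DNAI4, IFT172, DNAH1, BBS7, IFT81 and CFAP97 also crossed 0, as did TPPP. The cause was not tested. No paired analysis was possible because the replicate numbers only name samples in accession order and the labels pair no birds across the groups. Role medians that turned with 1 library left out were those of the BBSome, IFT-A, radial spokes and arm intermediate and light chains.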
